A study of Mus musculus with 12 samples.

Results

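Sham-operated plantaris muscle was used to compare progenitors that carry floxed Yap1 and Taz alleles with progenitors that do not, in 6 of the 12 libraries of the series. The members are the 3 libraries of control sham and the 3 of cdKO sham, chosen by their labels and not by any measured value. Control mice carried Pdgfra-CreERT2 alone. The cdKO mice carried the same driver together with Yap1 flox/flox and Taz flox/flox alleles, so the Cre transgene, under the control of Pdgfra, was common to both groups. The other 6 libraries came from overloaded plantaris muscle of the same 2 genotypes. They were used for comparison, and they entered the fit of all 12 libraries that sets the spread behind each sham p. All libraries were made from Pdgfra+ mesenchymal progenitors, also called fibro-adipogenic progenitors, sorted at 1000 cells per tube. The labels are silent on age, sex, the dosing of the Cre inducer, the time after surgery, the floxed exons and any pooling of mice. They also do not tie each library to its own animal. The p-values therefore set each genotype difference only against the spread among these libraries within groups, and that spread may be technical.

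YAP (gene Yap1) and TAZ (gene Wwtr1) are transcriptional co-activators at the end of the Hippo pathway. The kinases of that pathway phosphorylate them and hold them in the cytoplasm. On stiff matrix or under tension they enter the nucleus, bind TEAD factors and drive genes such as Ccn1 and Ccn2. Fibro-adipogenic progenitors lie between muscle fibres, secrete matrix and trophic factors, and are largely quiescent in unchallenged muscle. The comparison asks what loss of the co-activators does to these cells before any load is applied.

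Among 8161 genes with enough counts to be tested, 1 differed between genotypes in sham muscle, and it was Wwtr1 itself (0.0123% of genes, edgeR quasi-likelihood test, Benjamini-Hochberg adjusted p under 0.05). It was lower in cdKO, and 0 genes were higher (0%). At an unadjusted p under 0.05 there were 334 genes (4.09%), 174 higher (2.13%) and 160 lower (1.96%). DESeq2 and limma voom each called 2 genes, adding the cartilage matrix gene Cilp as higher. The 2 groups did not overlap for 807 genes (9.89%), with 444 higher in cdKO (5.44%) and 363 lower (4.45%). With 3 libraries in each group, such a gap also arises without any genotype difference. A lack of overlap is therefore a description of a gene below, not a call.

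The targeted genes were read first. Wwtr1 (chromosome 3, 57455649 to 57575910, minus strand, GRCm38) had 55, 79 and 39 counts in control sham replicates 1 to 3 and 20, 39 and 14 in cdKO sham. As CPM, meaning counts scaled to a common library size with TMM factors, these were 124, 108 and 126 in control and 36.7, 40.6 and 27.1 in cdKO. Every cdKO library lay below every control library, and the cdKO mean was 29.1% of the control mean (119 ± 9.95 against 34.8 ± 6.97 CPM, mean ± SD, n = 3). The log2 fold change was -1.74 ± 0.27 (SE; 95% interval -2.30 to -1.18, edgeR adjusted p = 0.00733). With 1 library left out the change kept its size, from -1.77 to -1.62 in the 4 fits that lost the call. Those were the fits without control sham replicate 1 (adjusted p = 0.0672), control sham replicate 3 (adjusted p = 0.0625), cdKO sham replicate 1 (adjusted p = 0.0683) and cdKO sham replicate 3 (adjusted p = 0.135), against a range of 0.000268 to 0.135 over all the edgeR, DESeq2 and limma settings tried. Yap1 (chromosome 9, 7931999 to 8004596, minus strand) had 48, 67 and 29 counts in control sham and 39, 54 and 34 in cdKO sham, or 108, 91.6 and 94.0 CPM against 71.5, 56.2 and 65.7 CPM. These groups did not overlap either, with the cdKO mean at 65.9% of control, but the difference did not pass (-0.61 ± 0.30, 95% interval -1.23 to 0.01, edgeR adjusted p = 0.999).

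In overloaded muscle the remaining Wwtr1 signal was 14.3% of the control mean, and that of Yap1 was 53.8%. Wwtr1 stood at 174, 125 and 125 CPM in control overload and 20.1, 18.2 and 22.5 in cdKO overload. The cdKO sham libraries held more Wwtr1 than any cdKO overload library. The test of whether the genotype difference itself differed with load gave -1.03 for Wwtr1 (unadjusted p = 0.0134, adjusted p = 0.884 by edgeR), so it did not pass. The labels cite a published protocol for small samples, known as CEL-Seq2, that counts the 3′ ends of transcripts, and reads from outside a deleted exon check nothing of the deletion. How much of the remaining signal is of that kind was not tested.

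**Figure D1:**
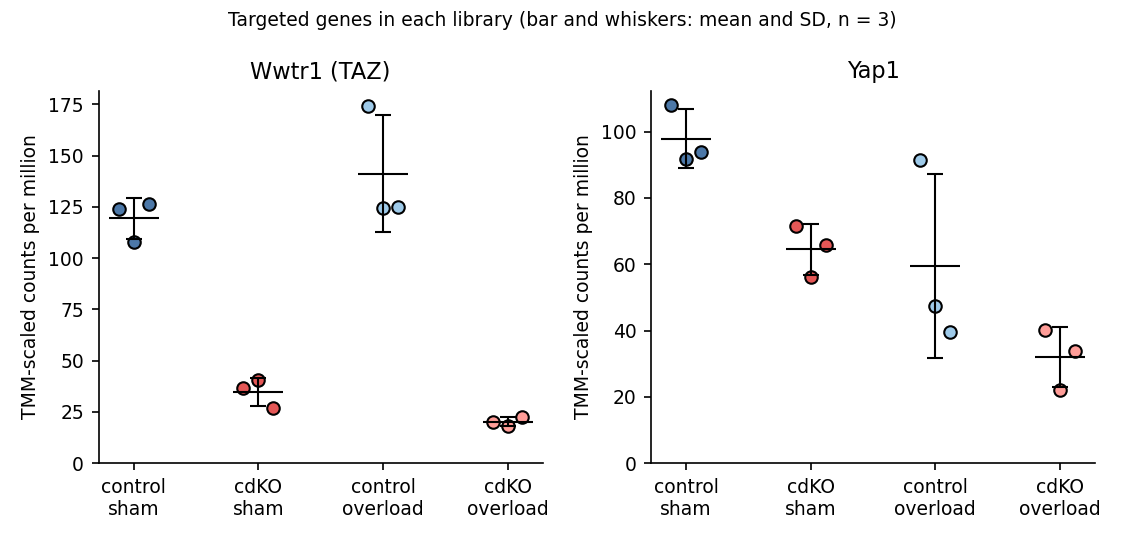
Wwtr1 and Yap1 in each library of the 4 groups, as TMM-scaled CPM on a linear axis from 0. Points are libraries, and the bar and whiskers are the mean and SD of 3 libraries. All 3 cdKO sham libraries lie below all 3 control sham libraries for both genes, from 27.1 to 40.6 against 108 to 126 CPM for Wwtr1.

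The sort was checked against markers before the other genes were read. Pdgfra, the receptor used for the sort, stood at 608, 479.9 and 479 CPM in control sham and 565, 899.6 and 593 in cdKO sham. Values in parentheses from here on are log2 fold changes (cdKO over control) ± SE. The ranges of Pdgfra overlap (log2 fold change 0.40 ± 0.25, edgeR adjusted p = 0.999). All 27 genes of the resting progenitor identity list were measurable, and their summed level was 47810 to 59460 CPM in control and 48100 to 59430 CPM in cdKO. Gsn, which encodes the actin-severing protein gelsolin, made up most of that sum, at 31810.0, 41370.0 and 42434 CPM in control and 36425, 30623 and 45325 in cdKO. Of the 27 members 0 passed, 17 lay below 0, and the list median was -0.08 on the log2 scale. Cxcl14, described below, was the 1 member with an unadjusted p under 0.05 (3.7%, against 4.09% of all genes). Groups did not overlap for 1 higher and 3 lower members (14.8%, against 9.89% of all genes). Fewer cells of a type and less RNA per cell cannot be told apart in such bulk libraries.

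Markers of other cells were summed over whole lists. The 14 macrophage and myeloid genes together made up 52.0 to 67.6 CPM in control and 28.1 to 49.5 CPM in cdKO, without overlap. Only 1 of the 14 had enough counts to be tested. The nearest libraries, at 52.0 and 49.5 CPM, lay closer than the 4.10 CPM that 3 counts amount to in control sham replicate 2. Lyz2, S100a8 and S100a9 had no count in any sham library, whereas Ptprc, the pan-leukocyte gene, had 4 to 17 counts in control and 1 to 15 in cdKO. Lymphocyte genes summed to 9.57 to 32.4 and 18.7 to 25.7 CPM, with Trbc2 at 0 throughout and Cd4 highest in cdKO replicate 2, at 16 counts. For the 12 endothelial genes the sums were 120.3 to 227.5 CPM and 121 to 218 CPM, and for the 12 myofibre genes they were 77.9 to 137.4 and 57.3 to 152.7 CPM, with Tnnc2 at 0. The 10 muscle stem cell genes, 3 of them tested, summed to 76.6 to 77.8 CPM in control and 80.2 to 84.3 CPM in cdKO, also without overlap. The nearest of these, at 77.8 and 80.2 CPM, lay closer than 3 counts amount to in any sham library (3.12 to 9.72 CPM). Pericyte and smooth muscle genes summed to 453 to 586 and 435 to 634 CPM. Schwann and nerve genes summed to 345 to 554 and 526 to 638 CPM. These sums were the largest among the lists for other cells. Most of the Schwann and nerve sum was Pmp22 alone, at 299.5, 527.7 and 463.3 CPM in control and 502.3, 549.8 and 458.1 in cdKO. Only Pmp22 and Ngfr, 2 of the 9 on that list, could be tested. Ngfr was at 31.5, 15.0 and 6.48 CPM in control and 53.2, 72.9 and 40.6 in cdKO, without overlap. The 5 haemoglobin and erythroid genes summed to 0 to 4.50 CPM in control, but to 5.50, 115.6 and 129.5 CPM in cdKO replicates 1, 2 and 3. Red cell RNA was thus present in 2 cdKO libraries and nearly absent from the other 4. Its part in any other difference was not tested.

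Depth overlapped between the groups, and the share of mitochondrial counts did not. Library totals were 336437 to 793842 counts in control sham and 559911 to 1019875 in cdKO sham, so that 3 counts amount to between 3.12 and 9.72 CPM. Mitochondrial genes took 7.39% to 10.18% of the counts in control and 11.63% to 13.98% in cdKO, without overlap. Of the 15 genes of the mitochondrial genome 14 had a log2 fold change above 0, against 4191 of all 8161 genes tested. Their median was 0.23, against 0.01 over all genes tested, although 0 passed. An unadjusted p under 0.05 was reached by 3 of the 15 (20%, against 4.09% of all genes). The ribosomal RNA gene model CT010467.1, singled out after its values were seen, was likewise at 2659.7, 2302 and 2161 CPM in control and 5342, 4314 and 4295 in cdKO (0.97 ± 0.33, edgeR adjusted p = 0.999). What part this composition has in the results below was not tested. Xist and Y-linked genes were both counted in all 6 sham libraries, with Xist at 22.7 to 132.9 CPM in control and 42.2 to 212.4 CPM in cdKO. Pairs of sham libraries correlated at 0.892 to 0.917 within control, 0.882 to 0.915 within cdKO and 0.860 to 0.923 between genotypes (Pearson's r of log2 CPM across genes, a description). The cdKO sham library of replicate 2, the deepest, stood apart: the chi-square per degree of freedom was 7.07 to 9.99 in the 5 pairs with it and 2.61 to 6.37 in the other 10, a measure that grows with depth. The same library also had the highest Xist level (212.4 CPM) and mitochondrial share (13.98%) of the 6 sham libraries. Its Y-linked sum was the lowest, at 131 CPM against 225 to 311 CPM in the others. Without that library Wwtr1 was still the 1 gene past the threshold (edgeR adjusted p = 0.0261).

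The precision of the comparison sets what it can show. The median standard error of a log2 fold change was 0.39, and the middle 90% of genes lay between -0.69 and 0.73. For 3407 of the 8161 genes (41.7%) the 95% interval of the genotype difference lay wholly within a 2-fold change in either direction. That share depended on abundance. It was 2.61% of the 2533 genes under 20 CPM, 39.2% of the 2794 genes from 20 to 50 CPM, 74.0% of the 1394 genes from 50 to 100 CPM, 86.3% of the 1208 genes from 100 to 500 CPM and 74.1% of the 232 genes at 500 CPM and over. For most genes above 50 CPM a 2-fold genotype difference was therefore outside the interval, whereas for most genes under 50 CPM it lay inside the interval at this depth.

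**Figure D2:**
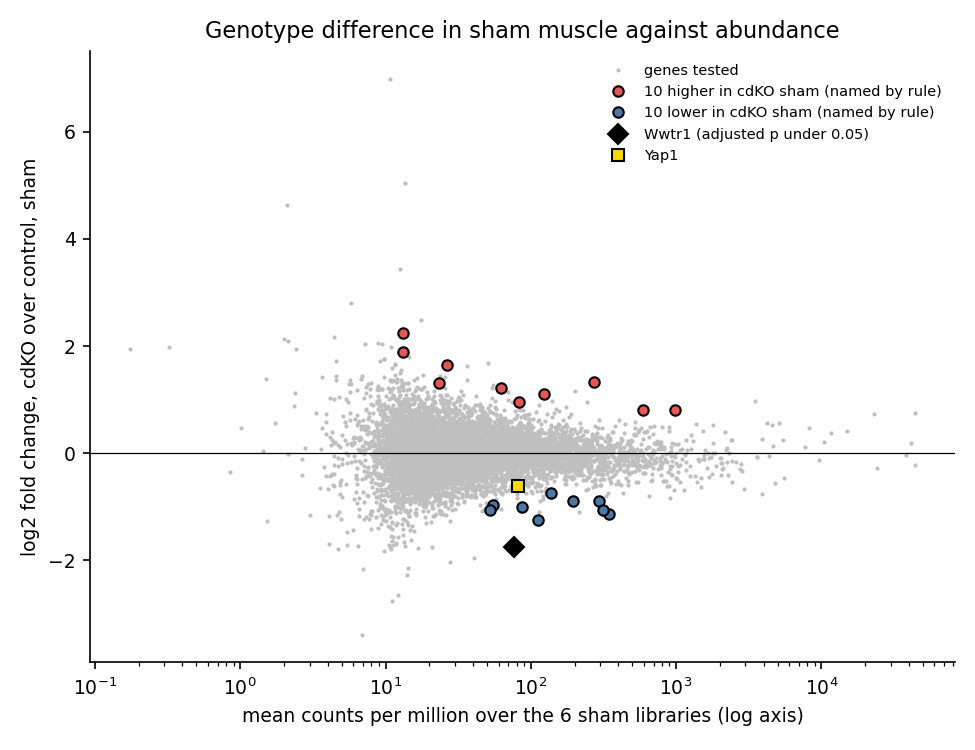
Each gene tested is a point, with its mean CPM over the 6 sham libraries on a log axis and its log2 fold change (cdKO over control, sham muscle) on the vertical axis. Wwtr1 (diamond, -1.74) lies below genes of the same abundance, Yap1 is the square, and the coloured circles are the named genes with the smallest p in each direction.

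The partners of YAP and TAZ were read next. Of 8 TEAD and VGLL factors 5 were tested and 0 passed (list median -0.06, against 0.01 for all genes, and -0.25 to 0.08 over the settings tried). Tead1, a DNA-binding partner, stood at 72.1, 99.8 and 74.5 CPM in control and 66.0, 85.4 and 94.7 in cdKO (-0.02 ± 0.27). Vgll3, a co-factor that competes for TEAD, was at 20.3, 16.4 and 25.9 CPM and 14.7, 14.6 and 9.66 CPM (-0.60 ± 0.44), and Tead2 was at 29.3, 24.6 and 32.4 and 18.3, 22.9 and 17.4 CPM (-0.50 ± 0.40). Vgll3 and Tead2 did not overlap between the groups, while Tead1 did. Groups thus did not overlap for 2 of the 5 tested factors (40%, against 9.89% of all genes). Of 15 tested kinases, scaffolds and other upstream regulators of the Hippo pathway 0 passed, 11 had a log2 fold change below 0, and the median was -0.18 (-0.20 to 0.02 over the settings). Amotl2, an angiomotin family member that binds YAP and is also a reported target of it, stood at 74.3, 46.5 and 45.4 CPM in control and 22.0, 39.6 and 42.5 in cdKO (-0.66 ± 0.34, edgeR adjusted p = 0.999), without overlap. In the overloaded libraries its difference was -1.59 ± 0.37, which did not pass there either.

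Reported target genes of the co-activators lay on both sides of 0 in sham muscle. Of 26 tested members 0 passed by edgeR, 14 lay above 0 and 12 below, and the median was 0.06 (-0.05 to 0.25 over the settings). A single member (3.85%, against 4.09% of all genes) reached an unadjusted p under 0.05, and it was higher in cdKO. That was the growth arrest gene Gadd45b, at 90.1, 116 and 119.9 CPM in control and 143, 262 and 168 in cdKO (0.83 ± 0.28, edgeR adjusted p = 0.999). Groups did not overlap for 4 of the 26 (15.4%, against 9.89% of all genes), with Gadd45b, the matrix gene Ccdc80 and the caveolin gene Cav1 higher and Amotl2 lower.

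The targets most often used as readouts, and the thrombospondin pair Thbs1 and Cd47, overlapped between the genotypes. Ccn1 (chromosome 3, 145646976 to 145649981), a matricellular protein gene, stood at 128, 161 and 139 CPM in control and 51.3, 191 and 67.7 in cdKO. Replicates 1 and 3 of cdKO lay below all controls, but replicate 2 lay above them, and the difference was -0.43 ± 0.35 (95% interval -1.16 to 0.31). Without cdKO sham replicate 2 it was -1.27 (edgeR adjusted p = 0.419, against 0.419 to 1 over the settings tried), and without cdKO sham replicate 1 it was -0.12. Ccn2 (chromosome 10, 24595442 to 24598683), connective tissue growth factor, was at 153, 309 and 191 CPM and 249, 167 and 77.3 CPM (-0.42 ± 0.57, interval -1.66 to 0.82). It ran from -0.83 without cdKO sham replicate 1 to -0.05 without control sham replicate 2. Thbs1 (chromosome 2, 118111876 to 118127133), encoding thrombospondin-1, was at 1007, 844 and 829 and 885, 314 and 835 CPM (-0.40 ± 0.30, interval -1.01 to 0.21), with cdKO replicate 2 alone far below the other 5. Without that library it was -0.05, and without cdKO sham replicate 1 it was -0.64. Its receptor gene Cd47 stood at 759, 868 and 629 and 746, 790.3 and 474 CPM (-0.17 ± 0.25). None of the 4 passed by edgeR (each adjusted p = 0.999), and the intervals leave room for changes in either direction. Ankrd1 had 0 to 3 counts in each sham library and could not be tested.

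The promoter of Ccn1 is shown because TEAD binding there is the textbook route by which YAP and TAZ act on a target. The window runs from 250 bases before to 50 bases after the RefSeq start (chr3:145649936-145650235, minus strand, GRCm38.p6), and the capitals mark its 1 match to the TEAD motif GGAATG, read here as its reverse complement CATTCC.
Ccn1: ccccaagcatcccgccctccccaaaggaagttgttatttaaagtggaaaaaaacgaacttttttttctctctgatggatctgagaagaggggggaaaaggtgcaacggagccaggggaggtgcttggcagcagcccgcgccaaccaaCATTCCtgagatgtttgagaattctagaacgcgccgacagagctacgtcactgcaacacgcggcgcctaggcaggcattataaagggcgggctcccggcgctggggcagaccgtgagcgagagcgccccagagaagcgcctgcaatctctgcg
The motif, searched on both strands, occurred in 14.7% of the 32851 promoter windows in the RefSeq table and in 11 of 29 windows (37.9%) of the 25 target genes found there, Amotl2 included. Of the genes named below for the smallest p it was in the windows of Trip6, Nup160 and Wwtr1 itself. A match is a description of the sequence and says nothing of binding in these cells.

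Genes with the smallest p in each direction were taken by rule from protein-coding genes whose higher group averaged 20 CPM or more and whose groups did not overlap, which left 346 higher and 303 lower to choose from. Because p chose them, their differences are a description. None other than Wwtr1 passed by edgeR: the adjusted p was 0.115 for Cilp, 0.569 for Aph1a and Mdp1 and 0.999 for all others.

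Of the 10 higher genes, 5 encode secreted or matrix proteins and are described first. Cilp, which encodes cartilage intermediate layer protein (chromosome 9, 65265180 to 65280605), stood at 194, 124 and 149 CPM in control sham and 403, 395 and 369 in cdKO sham. The cdKO mean was 2.50 times the control mean (1.33 ± 0.26). Its adjusted p ranged from 0.000216 by DESeq2 to 1 without control sham replicate 2, and it passed with DESeq2, limma voom (0.00624) and a fit to the 6 sham libraries only (0.0384). Matn2, encoding the matrix adaptor matrilin-2, was at 45.0, 98.4 and 87.5 CPM and 199.8, 142 and 162 CPM (1.10 ± 0.30). Mfap4, a microfibril-associated glycoprotein gene, was at 29.3, 42.4 and 38.9 and 104, 73.9 and 85.0 CPM (1.22 ± 0.38). In each of these 3 genes the cdKO mean was at least 2.18 times that of control. Igf1, the growth factor that acts on muscle fibres and stem cells, was at 392, 481 and 418 CPM in control and 790.1, 864 and 609 in cdKO (0.81 ± 0.24). Cxcl14, a chemokine on the resting progenitor list though higher in control overload (mean 2489 CPM), was at 838, 725 and 573 CPM and 1298, 1411 and 1022 CPM (0.80 ± 0.25). Both had cdKO means 1.75 times the control mean.

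The other 5 higher genes encode proteins inside the cell, and 4 of them were scarce. Aph1a, a subunit of the gamma-secretase complex, stood at 2.25, 6.84 and 3.24 CPM in control and 23.8, 23.9 and 19.3 in cdKO (2.25 ± 0.53). Mdp1, a phosphatase gene, was at 11.3, 13.7 and 13.0 and 55.0, 33.3 and 32.9 CPM (1.64 ± 0.39). Nup160, a nuclear pore component, was at 4.50, 5.47 and 6.48 and 20.2, 15.6 and 27.1 CPM (1.89 ± 0.53). Rfc1, the large subunit of the replication clamp loader, was at 11.3, 17.8 and 9.72 CPM in control and 33.0, 42.7 and 25.1 in cdKO (1.31 ± 0.39). For Aph1a and Nup160 the control values are at or near the level of 3 counts. Mdp1 had 5, 10 and 4 counts in control sham and Rfc1 had 5, 13 and 3, so the folds of all 4 rest on few reads. Pfn2, encoding the actin-binding protein profilin-2, was at 58.6, 67.0 and 42.1 and 93.5, 154 and 79.2 CPM (0.95 ± 0.30).

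On the lower side, Ifi47, Ifi211 and Pml are described first; none of them is on the interferon list read below. Ifi47, an interferon-induced GTPase (chromosome 11, 49076587 to 49096974), stood at 108, 205 and 162 CPM in control and 69.7, 71.8 and 59.9 in cdKO (-1.24 ± 0.33). Ifi211, of the Ifi200 family of nucleic acid sensors, was at 282, 440.2 and 424 and 266, 158 and 199 CPM (-0.89 ± 0.25). Its reads may be shared with near-identical family members. Pml, the organiser of nuclear bodies, was at 67.6, 76.6 and 74.5 CPM in control and 36.7, 36.4 and 38.7 in cdKO (-0.97 ± 0.30), with little spread in either group. The cdKO means of these 3 genes were 42.4%, 54.4% and 51.1% of control.

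The remaining 6 lower genes serve adhesion, the cytoskeleton, transport and secretion. Trip6, a zyxin family adaptor of focal adhesions, stood at 90.1, 120.3 and 139 CPM in control and 42.2, 66.6 and 61.9 in cdKO (-1.01 ± 0.28). Tuba1c, an alpha-tubulin with near-identical relatives, was at 78.8, 80.7 and 51.8 and 38.5, 32.3 and 32.9 CPM (-1.06 ± 0.30). Their cdKO means were 48.8% and 49.0% of control. Ccl7, a monocyte chemoattractant, was at 482, 474 and 311 CPM in control and 258, 152 and 207 in cdKO (-1.05 ± 0.31). Slc1a5, a glutamine transporter, was at 225, 208 and 330.5 and 169, 115 and 128 CPM (-0.89 ± 0.26). All cdKO libraries lay below the lowest control for both genes. Procr, the protein C receptor, was at 248, 712 and 457 and 244, 167 and 244 CPM (-1.13 ± 0.33), where control replicate 1 nearly met the highest cdKO library. Pcolce2, an enhancer of procollagen C-proteinase, was at 173, 191 and 156 CPM and 86.2, 119.7 and 104 CPM (-0.74 ± 0.23).

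**Figure D3:**
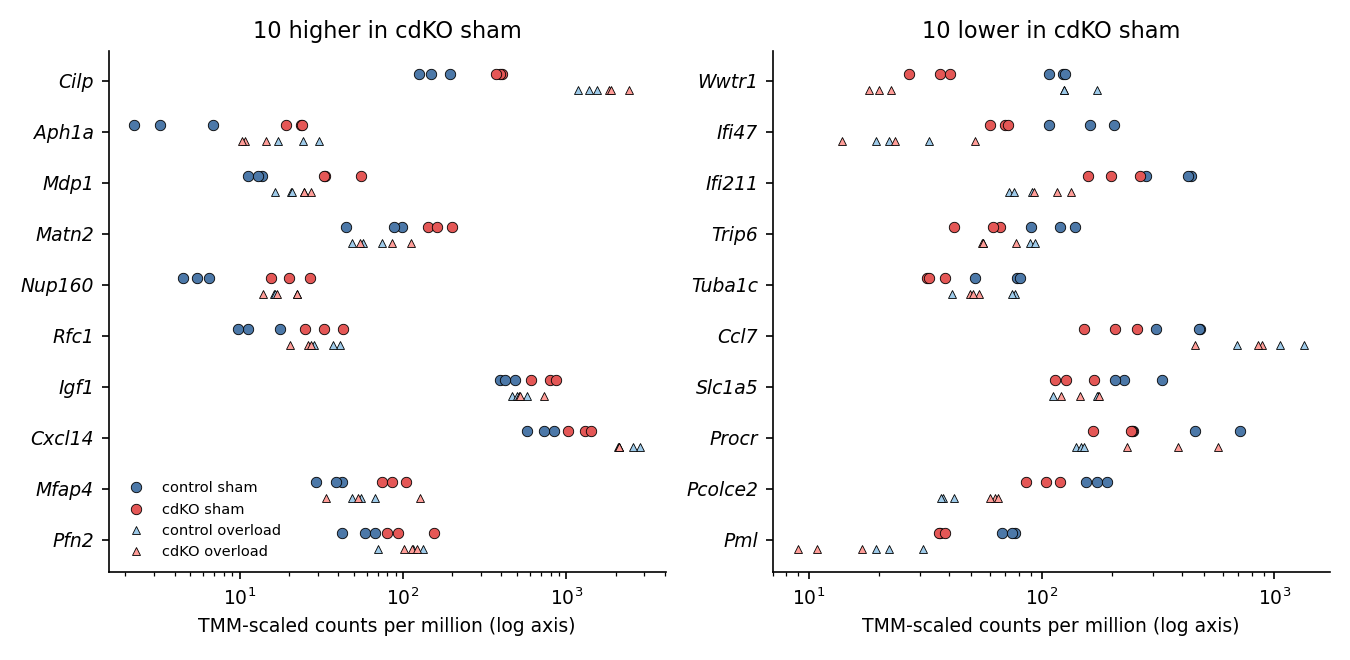
The 10 genes with the smallest p in each direction, with TMM-scaled CPM on a log axis. Circles are sham libraries and triangles are overloaded libraries, blue for control and red for cdKO. Sham circles of the 2 genotypes do not overlap because the rule required it, whereas overload triangles often do, and Procr lies in the opposite order there.

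The overloaded libraries give a second reading of the same genotype contrast with no library in common, although the labels do not say whether the muscles came from the same mice. Sex-linked genes also differed there. Xist stood at 101.7, 98.7 and 99.2 CPM in control overload and 3.09, 93.6 and 3.37 in cdKO overload. Y-linked genes summed to 246, 72.7 and 88.7 CPM and 337, 204 and 310 CPM. Their part in the overload contrast was not tested. Of the 10 higher genes, 6 had the same sign in overloaded muscle, as had 6 of the 10 lower genes, against 49.4% of all genes tested. Among the 334 genes at an unadjusted p under 0.05 in sham, 168 (50.3%) had the same sign in overload. Of the 334, 15 reached an unadjusted p under 0.05 in overload by edgeR with the same sign and 31 with the opposite sign. Over all 8161 genes tested these counts were 292 with the same sign and 277 with the opposite sign. In either direction 6.97% of all genes reached it in overload. Across all genes the sham and overload log2 fold changes had a Pearson's r of -0.12 and a Spearman's rho of -0.04, as a description over genes that are not independent replicates. Cilp kept its direction, at 1377, 1542 and 1176 CPM in control overload and 1811, 2423 and 1875 in cdKO overload (0.58 ± 0.24), and Pml kept it at 31.0, 19.5 and 22.2 and 10.8, 16.9 and 8.98 CPM (-0.93 ± 0.36). Of these 20 genes, Wwtr1, Cilp and Pml were those with the same sign and an unadjusted p under 0.05 under both loads.

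Some named genes stood the other way under load. Procr, lower in cdKO sham, was at 141, 147 and 153 CPM in control overload and 385, 234 and 573 in cdKO overload (1.43 ± 0.33). Its overload groups did not overlap, as was so for 10.7% of all genes. Pcolce2 was at 37.9, 37.0 and 42.0 and 63.3, 59.8 and 65.1 CPM (0.69 ± 0.25), and Aph1a, higher in cdKO sham, was at 17.2, 30.5 and 24.5 and 10.8, 10.4 and 14.6 CPM (-1.03 ± 0.40). The interaction, which tests whether the genotype difference differs between sham and overload, passed for 0 of 8161 genes by edgeR (0%), with 427 at an unadjusted p under 0.05 (5.23%). Limma voom also called 0, and DESeq2 called 1, Procr. The edgeR interaction for Procr was 2.56 (unadjusted p = 2.04e-05, adjusted p = 0.167), and it passed when control sham replicate 1 or cdKO overload replicate 2 was left out. Cxcl13 and F2rl1, which with Wwtr1 were the 3 genes past the threshold in overloaded muscle (0.0368%), did not pass in sham by edgeR. Cxcl13, a B cell chemoattractant, stood at 27.0, 50.6 and 90.7 CPM in control sham and 42.2, 47.9 and 40.6 in cdKO sham (-0.30 ± 0.38, adjusted p = 0.999). F2rl1, a protease-activated receptor, was at 4.50, 6.84 and 6.48 and 5.50, 2.08 and 3.87 CPM (-0.76 ± 0.70). Without control overload replicate 1 the overload count was 34 genes, and without control overload replicate 3 or cdKO overload replicate 3 it was 1.

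Interferon-induced genes were the list with the lowest sham median among lists with at least 5 tested members. Of 26 tested members 0 passed, 20 had a log2 fold change below 0, 5 reached an unadjusted p under 0.05, all lower (19.2%, against 4.09% of all genes), and 8 did not overlap, all lower (30.8%, against 9.89%). The median was -0.50, against 0.01 over all genes, and ran from -0.59 to -0.35 over the settings tried. Ifit1, an RNA-binding effector, stood at 187, 339 and 349.9 CPM in control and 156, 111 and 147 in cdKO (-1.09 ± 0.44). Parp14, an ADP-ribosyltransferase, was at 45.0, 54.7 and 77.8 and 27.5, 18.7 and 46.4 CPM (-0.96 ± 0.38), and Ifi35 was at 31.5, 31.4 and 29.2 and 18.3, 18.7 and 13.5 CPM (-0.85 ± 0.39). The lower cdKO values of Ifit1 and Ifi35 were in all 3 libraries, whereas the groups met for Parp14. B2m, the light chain of class I molecules, was at 1275, 1747 and 1131 CPM and 1087, 638 and 879 CPM (-0.68 ± 0.29), and the 8 tested class I presentation genes had a median of -0.15. The summed macrophage and myeloid markers, of which 1 of 14 could be tested, were also lower in cdKO, with the narrow gap given above. Their part in the interferon values was not tested. In overloaded muscle the interferon median was 0.16, and Parp14 differed by 1.60 ± 0.48 in the other direction. The difference between the medians was not tested.

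The promoter of Ifit1 is printed because binding of interferon regulatory factors to such promoters is the textbook route of their induction (chr19:34640639-34640938, plus strand, GRCm38.p6, the same window around the RefSeq start). Capitals mark its 2 matches to the IRF motif, GAAA and a further GAAA after any 2 bases, found here on the other strand as TTTC, 2 bases and TTTC.
Ifit1: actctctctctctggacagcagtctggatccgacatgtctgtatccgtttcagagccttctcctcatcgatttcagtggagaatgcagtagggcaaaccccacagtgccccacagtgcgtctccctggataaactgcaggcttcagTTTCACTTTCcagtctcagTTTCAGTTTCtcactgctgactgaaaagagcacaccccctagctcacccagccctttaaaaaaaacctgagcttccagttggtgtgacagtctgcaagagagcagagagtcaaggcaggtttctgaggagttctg
The motif, searched on both strands, was in 3.44% of all windows and in 16 of 29 windows (55.2%) of the 24 interferon-list genes found in the table. Among the 10 lower genes it was in the window of Ifi211 only of the 8 with an entry, and among the 10 higher genes in that of Cxcl14. Only these 2 motifs were searched, and a match is a description, not a site.

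Collagens were the list with the highest median among those with at least 5 tested members, at 0.41 in sham and 0.36 in overload. Of 21 tested chains 0 passed, 17 lay above 0, 3 reached an unadjusted p under 0.05 (14.3%, against 4.09% of all genes), all higher, and 7 did not overlap (33.3%, against 9.89%), 6 of them higher. Col1a1, a chain of fibrillar collagen I, stood at 3916, 3937 and 3424 CPM in control and 6119, 5423 and 4766 in cdKO (0.53 ± 0.26). Its partner Col1a2 was at 10274, 10528 and 9434 and 13421, 13783 and 12249 CPM (0.38 ± 0.25), and Col3a1 was at 14269, 11961 and 12191 and 16667, 14561 and 19882 CPM (0.41 ± 0.27). For each of these 3 abundant genes the cdKO libraries were the 3 highest, with differences under 2-fold. Col16a1, a fibril-associated collagen, was at 65.3, 99.8 and 74.5 CPM and 104, 169 and 137 CPM (0.76 ± 0.26), and Col8a1, a short-chain collagen, was at 56.3, 39.6 and 32.4 and 112, 48.9 and 131 CPM (1.14 ± 0.33), where cdKO replicate 2 fell within the control range. All had an edgeR adjusted p of 0.999.

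Other matrix genes pointed both ways. In the assembly and crosslinking list 21 of 42 tested genes lay on each side of 0 (median -0.03), and 0 passed. At an unadjusted p under 0.05 there were 3 higher and 2 lower genes (11.9%, against 4.09% of all genes), and 6 higher and 2 lower genes did not overlap (19%, against 9.89%). The 6 were Mfap4, Bgn, Eln, Sparc, Vcan and Ltbp2, and the 2 were Pcolce2 and Ogn. Ogn, a small leucine-rich proteoglycan, was at 847, 1513 and 1150.1 CPM in control and 698, 669 and 601 in cdKO (-0.84 ± 0.26). Ltbp2 had no count in control sham and 1, 3 and 4 counts in cdKO sham, too few for a fold. Among 17 tested proteases and inhibitors 13 lay below 0, 2 did not overlap (11.8%, against 9.89% of all genes) and 3 reached an unadjusted p under 0.05 (17.6%, against 4.09%). These 3 were Adamts5, an aggrecanase, at 389.6, 500.4 and 392 and 266, 386 and 220.3 CPM (-0.55 ± 0.25), and the plasminogen activators Plat (-0.71 ± 0.32) and Plau (-0.59 ± 0.28). Plat and Plau overlapped between the groups, and Adamts5 did not.

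Signals to muscle stem cells held 5 of 17 tested genes at an unadjusted p under 0.05 (29.4%, against 4.09% of all genes), 4 of them higher in cdKO, and 0 passed. Besides Igf1, these were Sfrp1, a secreted Wnt modulator, at 128, 149 and 146 CPM in control and 192, 282 and 201 in cdKO (0.68 ± 0.24), Gdf10 (0.78 ± 0.30) and Gas6, a ligand of the Axl receptor (0.74 ± 0.30). Fgf2 stood lower, at 29.3, 47.8 and 38.9 and 27.5, 20.8 and 25.1 CPM (-0.71 ± 0.32). The 6 genes of this list whose groups did not overlap (35.3%, against 9.89% of all genes) comprised these 5 and the ligand gene Nrg1, at 20.3, 10.9 and 16.2 CPM and 7.33, 4.16 and 7.73 CPM (-1.31 ± 0.70). The list's median was -0.02 in sham and 0.20 in overload.

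Cartilage, bone and tendon genes had a median of 0.28 in both sham and overload. Of 15 tested members 0 passed, and 3 (20%, against 4.09% of all genes) reached an unadjusted p under 0.05, all higher in cdKO. Groups did not overlap for 1 of the 15 (6.67%, against 9.89%). Beside Cilp these were Thbs4, encoding the tendon and muscle matrix protein thrombospondin-4, at 284, 93.0 and 117 CPM in control and 399.6, 194 and 369 in cdKO (0.96 ± 0.38), and the transcription factor gene Runx1 at 49.5, 43.7 and 64.8 and 104, 59.3 and 71.5 CPM (0.59 ± 0.28). Control replicate 1 was the highest control library for Thbs4 and the groups overlapped for it and for Runx1. The 6 tenocyte markers summed to 21.9, 29.2 and 234.2 CPM in control and 28.1, 88.9 and 190.7 CPM in cdKO, each ordered by size, and replicate 1 was the highest in both genotypes. Their part in the Thbs4 values was not tested.

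Among inflammatory genes, 1 of 19 tested cytokines and chemokines (Ccl7, above) reached an unadjusted p under 0.05 (5.26%, against 4.09% of all genes). Of the 19, 0 passed, and the median was -0.17. Csf1, the macrophage growth factor, stood at 212, 208 and 220.3 CPM in control and 196, 125 and 149 in cdKO (-0.45 ± 0.23), and Cxcl1, a neutrophil chemoattractant, was at 2198, 3334 and 2206 and 2088, 2084 and 1645 CPM (-0.41 ± 0.29). With Ccl7 these were the 3 members whose groups did not overlap, all lower in cdKO (15.8%, against 9.89% of all genes). Differentiation and cytoskeleton lists stood near the middle of all genes: the medians were -0.03 for 27 actin and contractile genes, -0.03 for 11 adipogenic genes, 0.05 for 15 integrin and adhesion genes and 0.03 for 20 genes of TGF-beta, activin and BMP signalling. In the last of these lists 0 of 20 reached even an unadjusted p under 0.05. Myh10, a non-muscle myosin heavy chain, was at 31.5, 24.6 and 35.6 CPM in control and 36.7, 65.6 and 63.8 in cdKO (0.91 ± 0.35), and Meox1, a mesodermal homeobox gene, was at 49.5, 39.6 and 68.0 and 110.0, 123 and 56.1 CPM (0.95 ± 0.31). All these genes had an edgeR adjusted p of 0.999.

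No growth or division gene on the lists passed in sham by edgeR. Of 15 tested S phase genes 0 passed and 1 reached an unadjusted p under 0.05 (6.67%, against 4.09% of all genes). It was Hells, a chromatin remodeller, at 27.0, 23.2 and 32.4 CPM in control and 12.8, 10.4 and 19.3 in cdKO (-0.96 ± 0.41). The S phase median was -0.33 in sham, where it ran from -0.49 to 0.04 over the settings tried and was above 0 in the fits to the 6 sham libraries only, and -0.99 in overload. For 11 tested G2 and M phase genes the medians were -0.01 (-0.38 to 0.14 over the settings) and -1.31. Among the G2 and M phase genes only Smc4, a condensin subunit, had a mean above 20 CPM in either sham group. The differences between sham and overload medians were not tested. Ribosome biogenesis genes lay below 0 in 17 of 19 (median -0.26), as did 16 of 18 metallothionein and antioxidant genes (median -0.31), with 0 passing in either list. Immediate early genes, which also respond to tissue dissociation, had a median of -0.06 over 32 tested members, and their summed level was 19140 to 23330 CPM in control and 20280 to 23000 CPM in cdKO.

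**Figure D4:**
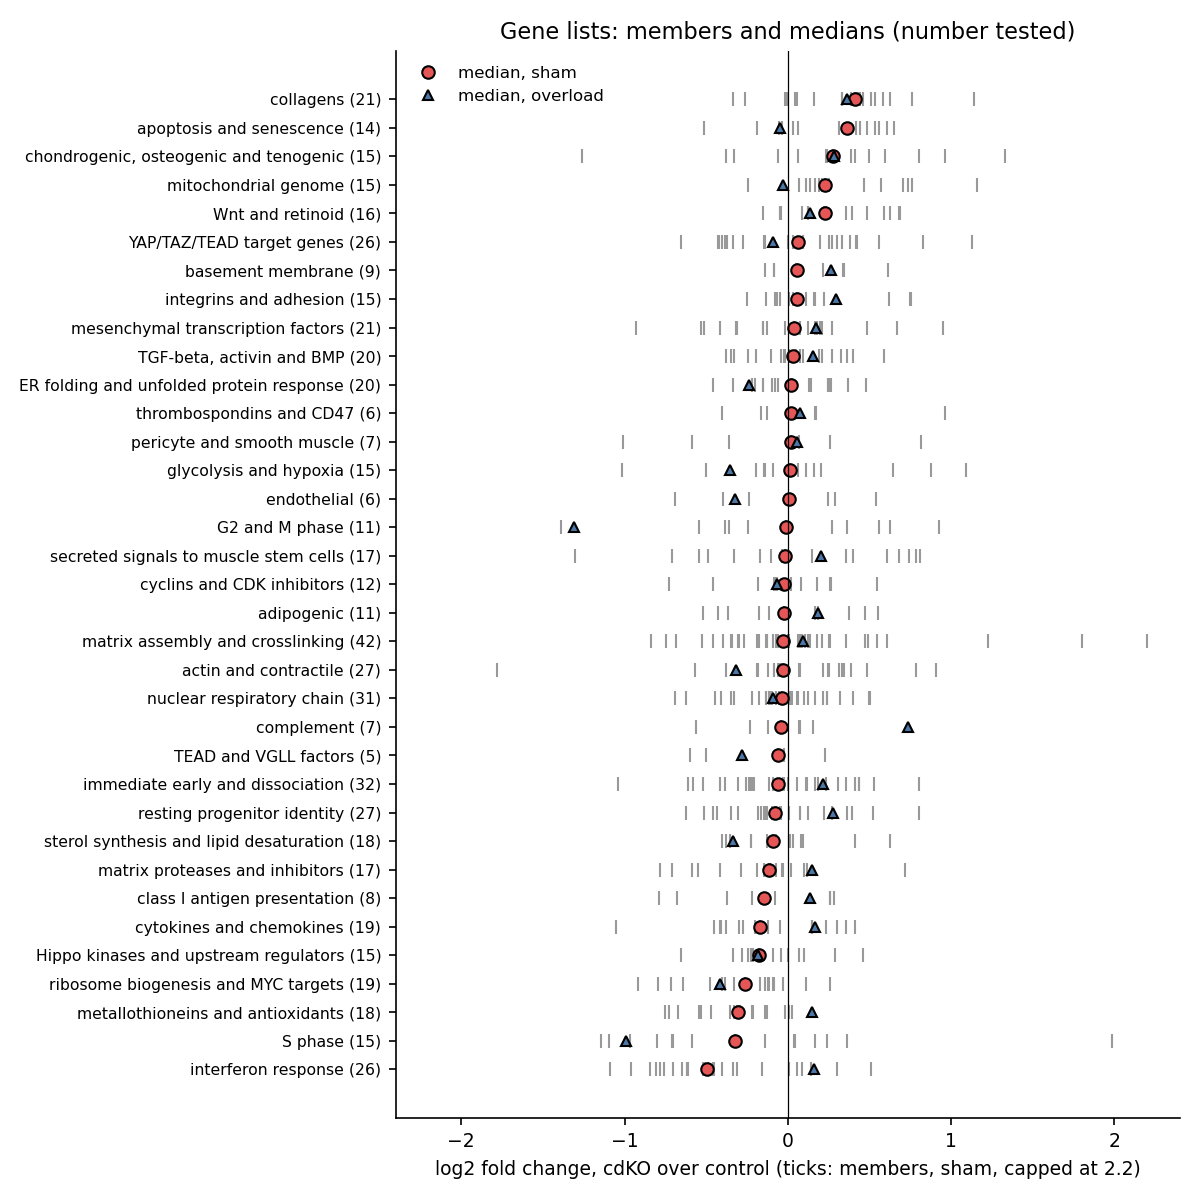
Gene lists with at least 5 tested members, ordered by their median log2 fold change (cdKO over control) in sham muscle. Grey ticks are the members in sham (those past the cap named on the axis are drawn at it), circles are sham medians and triangles are overload medians. Sham medians run from -0.50 for interferon response to 0.41 for collagens, and the cell cycle lists have the lowest overload medians.

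Genes next to the floxed loci were read because they travel with the modified alleles. Within 2 Mb of Wwtr1 on chromosome 3, 15 of 81 annotated genes were tested, 0 passed, and the median was 0.12. Pfn2, named above, is 1 of these (57841895 to 57848079, a gap of 266 kb), and it was the only one with an unadjusted p under 0.05 in sham. Its difference in overloaded muscle was 0.06 ± 0.27. Igsf10, 1741 kb away, was at 56.3, 35.5 and 42.1 CPM in control and 78.8, 88.5 and 46.4 in cdKO (0.71 ± 0.36), and the groups overlapped. Within 2 Mb of Yap1 on chromosome 9, 8 of 52 genes were tested, 0 passed, and the median was -0.18. Pgr, the progesterone receptor gene, 895 kb away, was at 45.0, 19.1 and 38.9 CPM in control and 14.7, 18.7 and 17.4 in cdKO (-0.95 ± 0.48), without overlap and lower in cdKO. Birc2 and Birc3, inhibitors of apoptosis that lie 94.9 kb and 58.8 kb from Yap1, differed by 0.61 ± 0.45 and 0.03 ± 0.37. The groups did not overlap for Birc2 either, which was higher in cdKO, so 2 of the 8 genes near Yap1 did not overlap, against 9.89% of all genes.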

How the data were processed

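The members and gene lists were chosen with earlier results of these data known. RNA from sorted progenitors was sequenced, and per the submitters' processing notes the authors' tools included featureCounts 2.0.1, HISAT2 2.2.1 on GRCm38, Trim Galore 0.6.6 and DESeq2 1.26.0. The deposited table holds raw counts for 54100 genes, and all 54100 identifiers matched GENCODE M21. Whether strand or molecular identifiers were used in counting is not given in the sources used here. Groups come from the labels.

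The main test was edgeR 4.0.16 (R 4.3.3), a robust quasi-likelihood fit to all 12 libraries with TMM scaling, a prior count of 0.125 and a low-count filter that kept 8161 genes; p-values were Benjamini-Hochberg adjusted over these, with 0.05 as the threshold. SE is the log2 fold change divided by the root of its F value. CPM are TMM-scaled. The scripts were tested on simulated data. Named genes are the targeted genes and their readouts, all genes past the threshold in sham, the 10 in each direction with the smallest p (protein-coding, at least 20 CPM, groups not overlapping), for each list the members with the smallest p, genes past the threshold in overload, and those within 2 Mb of a floxed locus with the smallest p. List members beyond these, such as collagen I and III chains, Csf1, Myh10, Pgr and Birc2, were named after their values were seen. Alternatives were DESeq2 1.42.0, limma 3.58.1 voom with quality weights, other scaling factors, no filter, a non-robust fit, a fit to the compared groups only, a replicate block and leaving out each library.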

Additional observations from a re-analysis of the deposited data

How the results depend on the processing

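The sham comparison called 1 gene (0 higher), and DESeq2, limma voom and the fit to the compared groups only each called 2 (1 higher, Cilp). Leaving out 1 sham library gave 0 to 1 genes, 0 to 1 lower and 0 higher, with Wwtr1 lost in the 4 fits named above. Genes with an interval within 2-fold numbered 2248 (without control sham replicate 2) to 2626, against 3407, with fewer libraries in the fit. The overload count of 3 became 17 with no filter, 1 in the fit to the compared groups only, and 1 to 34 with a library left out (34 without control overload replicate 1, and 1 without control overload replicate 3 or cdKO overload replicate 3). The interaction count of 0 became 1 with DESeq2 (Procr), 10 with no filter, and 0 to 1 with a library left out (Procr, without control sham replicate 1 or cdKO overload replicate 2). With a sham library left out, the log2 fold change of Cxcl13 ran from -0.63 (without control sham replicate 1) to 0.14 (without control sham replicate 3) and that of Cd47 from -0.30 (without cdKO sham replicate 2) to 0.014 (without cdKO sham replicate 3), so both reversed at the upper end; the cause was not tested. Of 416 values for named genes over the alternatives, 407 kept direction and side of the threshold. All of these genes but Wwtr1, Cilp, Aph1a and Mdp1 had an edgeR adjusted p of 0.999 in the main fit, far from the threshold. Of 658 list medians 649 moved by less than a set limit, the median over a list's members of their SD within the sham groups. That limit is wide for a median, and some medians changed sign over the settings, S phase among them (-0.49 to 0.04).

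Same-numbered control and cdKO sham libraries had correlated deviations of -0.07, 0.20 and 0.11, and differently numbered ones ran from -0.205 to 0.09. The labels do not say whether replicate numbers pair the samples, and these values do not settle it. With the replicate number as a block in the fit to 12 libraries, the counts were 1 in sham, 3 in overload and 0 for the interaction, and in the block fit to the compared groups only they were 1 in sham and 4 in overload. Depth limits low genes, since 3 counts were 3.12 to 9.72 CPM in sham.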
